A study of Mus musculus with 6 samples.

Results

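The regions described here are stretches of the mouse autosomes where an accessibility peak was called in both of 2 Sirt7-deficient (S7KO) libraries of spermatogonia and in neither of 2 wild-type (WT) libraries of similar depth. Peaks of S7KO replicates 1 and 4 and of WT replicates 1 and 4 on chromosomes 1 to 19 were merged wherever they overlapped or touched, which gave 150940 regions, and 1825 of these had a peak in S7KO 1 and S7KO 4 and none in WT 1 and WT 4. They are called S7KO-only regions below. The regions were chosen by the peak calls in those 4 libraries, so the values of these libraries are given as a description, and the replicate 2 libraries, which the choice did not use, are the only separate readout.

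The series holds 6 ATAC-seq libraries of spermatogonia from testes of mice at postnatal day 5, 3 of them S7KO and 3 WT. All mice were of one inbred background, and the libraries of a genotype were independent biological replicates, with no treatment given. S7KO mice lack Sirt7 in every cell of the body, so the germ cells and the somatic cells around them carried the same deletion. The cells were enriched by enzymatic digestion and differential plating, which leaves some somatic cells behind. ATAC-seq cuts DNA with the Tn5 transposase, and a peak is a stretch where the cut fragments pile up above the local background. The peak lists hold no transcript level, so the genotype could not be checked by the level of Sirt7 RNA, and a peak lay over the 5′ end of Sirt7 (chr11:120618371-120625014, minus strand, mm10) in 6 of 6 libraries.

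SIRT7 is a nuclear deacetylase, one of the sirtuins, and it removes the acetyl mark from lysine 36 of histone H3 (H3K36ac), a mark found near active promoters. Acetylated histones hold DNA less tightly, so loss of a histone deacetylase can be asked about at the level of open chromatin. Spermatogonia at this age include the stem cells of the testis, marked by the transcription factor PLZF (gene Zbtb16), and cells that are entering differentiation under retinoic acid.

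Between 105754 and 133695 peaks were listed per library, down to a q of 0.0983 in the most permissive list. The background coverage that each list implies, a relative measure of depth, was 4.72 in S7KO 1 and 4.74 in WT 1, and 6.03 in S7KO 4 and 6.001 in WT 4, so the 4 libraries that define the regions formed matched pairs. It was 5.15 in S7KO 2 and 2.92 in WT 2, and the genotypes of the replicate 2 libraries therefore differed in depth as well. The starts of the germ cell genes Ddx4, Dazl and Gfra1 lay in regions called in all 4 libraries. Of the regions called in all 4 libraries, 114 (0.116%) were counted for the Sertoli cell list and 104 (0.106%) for the endothelial list. The lists of undifferentiated spermatogonia, differentiation and germ cell identity had 158 (0.161%), 100 (0.102%) and 81 (0.0825%). The peak lists do not tell which cells held these regions open. In such bulk samples, fewer cells of a type with an open region and less opening per cell cannot be told apart.

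Sequence was available for the S7KO-only regions that reach a gene's start. A window of 250 bases before and 50 bases after an annotated start (RefSeq, GRCm38.p6) was overlapped by 26 regions, 1.42% of the 1825, and these touched 28 windows. By RefSeq gene type, 11 of the 26 regions lay at protein-coding genes and 15 at lncRNA genes, and 7 windows were covered over their full 300 bases. The windows of S7KO-only regions below are examples named after their values were seen. Most of them hold more CpG dinucleotides than the median of the 28 windows. Cd80 encodes a ligand that costimulates T cells (window chr16:38458683-38458982, plus strand). Glipr1l3 belongs to a family of secreted CAP proteins (chr10:112160278-112160577, minus strand). Zfp738 (chr13:67683463-67683762, minus strand) encodes a zinc finger protein. 6720489N17Rik (chr13:62624133-62624432, minus strand) is listed by RefSeq as protein-coding. Its S7KO-only region covers 123 of the 300 bases printed, where the windows of Cd80, Glipr1l3 and Zfp738 are covered in full. The window of Ddx4, the germ cell RNA helicase also called VASA (chr13:112652261-112652560, minus strand), was called in all 4 libraries and stands beside them for contrast. Each is written 5′ to 3′ on the strand of the gene, with every CG in capitals.
Cd80: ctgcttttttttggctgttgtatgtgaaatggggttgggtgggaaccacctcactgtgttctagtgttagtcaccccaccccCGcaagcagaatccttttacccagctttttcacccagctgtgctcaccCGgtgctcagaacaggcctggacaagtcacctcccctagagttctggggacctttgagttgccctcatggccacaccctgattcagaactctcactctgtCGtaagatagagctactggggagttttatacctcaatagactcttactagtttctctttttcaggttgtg
Glipr1l3: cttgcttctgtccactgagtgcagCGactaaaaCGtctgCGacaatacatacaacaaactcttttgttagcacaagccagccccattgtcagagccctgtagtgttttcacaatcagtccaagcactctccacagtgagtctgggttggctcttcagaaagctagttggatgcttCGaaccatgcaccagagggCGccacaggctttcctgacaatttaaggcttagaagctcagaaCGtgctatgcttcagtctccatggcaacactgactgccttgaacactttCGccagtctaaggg
Zfp738: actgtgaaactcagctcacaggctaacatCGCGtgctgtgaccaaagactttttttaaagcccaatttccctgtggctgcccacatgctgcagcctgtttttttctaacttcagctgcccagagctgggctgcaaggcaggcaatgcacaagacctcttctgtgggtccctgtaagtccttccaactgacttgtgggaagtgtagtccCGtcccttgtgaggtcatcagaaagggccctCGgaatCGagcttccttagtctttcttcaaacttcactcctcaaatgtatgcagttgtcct
6720489N17Rik: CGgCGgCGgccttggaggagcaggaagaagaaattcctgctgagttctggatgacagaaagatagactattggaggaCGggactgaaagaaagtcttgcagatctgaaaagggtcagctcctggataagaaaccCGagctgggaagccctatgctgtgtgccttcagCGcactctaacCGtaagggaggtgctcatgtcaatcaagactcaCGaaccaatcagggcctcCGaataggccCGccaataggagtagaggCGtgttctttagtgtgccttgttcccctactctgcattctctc
Ddx4: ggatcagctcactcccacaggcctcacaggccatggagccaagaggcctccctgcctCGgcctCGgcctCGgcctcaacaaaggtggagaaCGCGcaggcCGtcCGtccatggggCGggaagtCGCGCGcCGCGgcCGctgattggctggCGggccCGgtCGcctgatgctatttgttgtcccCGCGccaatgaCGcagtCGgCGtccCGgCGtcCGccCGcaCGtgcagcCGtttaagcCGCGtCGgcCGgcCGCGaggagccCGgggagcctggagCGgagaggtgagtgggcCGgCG

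The Cd80 window held 3 CpG, the Zfp738 window 5, the Glipr1l3 window 7 and the 6720489N17Rik window 11, whereas the Ddx4 window held 38. Over the 28 windows the median was 4.5 CpG and the range 2 to 11. The median was 7 over all 31396 windows on these chromosomes and 18 over the 17779 windows called in all 4 libraries. Windows under regions called in other pairs of libraries were as CpG-poor, with medians of 3.5 and 5 in the 2 crossed sets and 4 in the WT-only set defined below. Thus the starts reached by S7KO-only regions were mostly of the CpG-poor kind, and so were those of each set called in only 2 libraries.

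**Figure D1:**
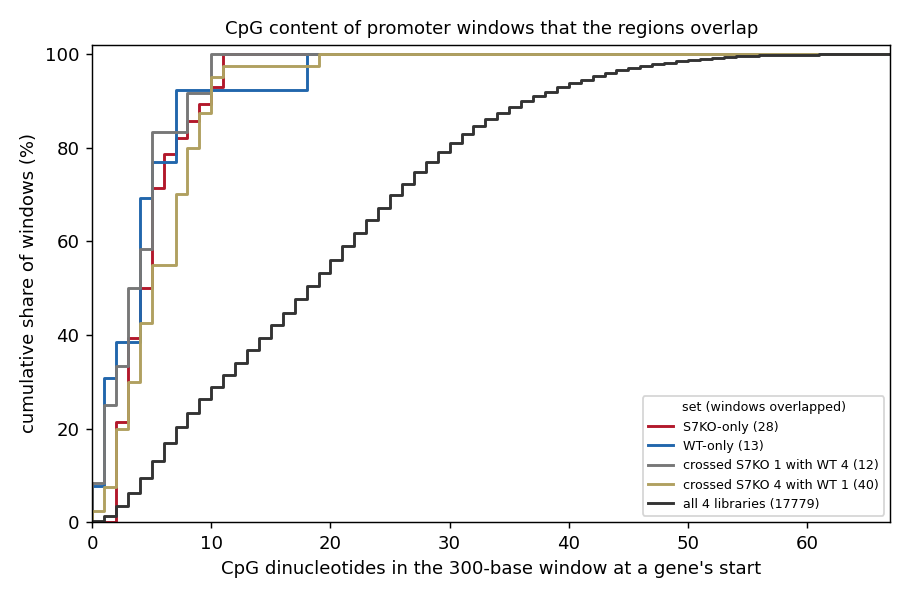
Cumulative share of promoter windows (y axis, %) by the number of CpG dinucleotides in the 300-base window (x axis), one line per set of regions, with the number of windows in the key. The 4 sets called in only 2 libraries rise steeply below 20 CpG, with medians of 3.5 to 5, while the windows called in all 4 libraries have a median of 18.

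Short motifs were searched on both strands of the same windows, and a match is a description of letters only. The GC box GGGCGG was found in 2 of the 28 windows (7.14%), against 57.7% of windows called in all 4 libraries and 35.98% of all windows. In the WT-only set (13 windows) and the crossed sets (12 and 40 windows) it was found in 23.1%, 0% and 15%. CCAAT was found in 10 (35.7%), against 36.2% and 37.3%, and 23.1%, 16.7% and 50% in those sets. TATAAA was found in 3 (10.7%), against 7.25% and 13.6%, and 15.4%, 25% and 17.5%. The E box CACGTG was found in 0, against 9.53% and 7.14%, and 0%, 16.7% and 5%. The cAMP response element TGACGTCA was found in 2 windows (7.14%), against 2.80% and 1.83%, and in 0 of the few windows of the WT-only and crossed sets. These 2 windows are printed with that motif in capitals. The S7KO-only region covers 174 of the 300 bases at Arhgef7 and all of them at Csnk1g2. Arhgef7 (chr8:11779034-11779333, plus strand) was the first, and Csnk1g2 (chr10:80629406-80629705, plus strand), which encodes a casein kinase 1, the second.
Arhgef7: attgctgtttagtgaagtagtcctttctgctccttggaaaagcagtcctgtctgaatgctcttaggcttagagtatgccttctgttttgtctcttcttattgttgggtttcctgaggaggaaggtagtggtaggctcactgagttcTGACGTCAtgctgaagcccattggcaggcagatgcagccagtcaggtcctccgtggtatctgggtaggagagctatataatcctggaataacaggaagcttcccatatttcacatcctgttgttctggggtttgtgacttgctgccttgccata
Csnk1g2: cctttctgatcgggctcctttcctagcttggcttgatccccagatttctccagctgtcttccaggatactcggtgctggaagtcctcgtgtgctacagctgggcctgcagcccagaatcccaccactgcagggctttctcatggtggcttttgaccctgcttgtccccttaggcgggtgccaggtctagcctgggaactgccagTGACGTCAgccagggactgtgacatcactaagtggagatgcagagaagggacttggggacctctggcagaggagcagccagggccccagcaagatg

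Neither of the 2 was a strong call. The −log10 q at the Arhgef7 region was 2.19 in S7KO 1 and 3.05 in S7KO 4, with no peak in S7KO 2 or WT 2. At the Csnk1g2 region it was 1.19 in S7KO 1, 1.73 in S7KO 4, 1.84 in S7KO 2 and 2.31 in WT 2, so this start was called in a WT library that the choice of regions did not use. Of the 26 regions at gene starts, 12 were called in S7KO 2 and 8 in WT 2. Over all S7KO-only regions these shares were 50.5% and 21.3%.

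The same rule was applied to the other pairings of 1 library from each depth, and the 2 crossed pairings show how many regions it returns when genotype does not separate the libraries. S7KO-only regions made up 1.21% of the 150940 merged regions. WT-only regions, called in WT 1 and WT 4 and in neither S7KO library, numbered 1546 (1.02%). The crossed set called in S7KO 1 and WT 4 and not in S7KO 4 and WT 1 numbered 1525 (1.01%), and the opposite crossed set, called in S7KO 4 and WT 1, numbered 1624 (1.08%). S7KO-only regions were the most numerous of the 4 sets by 201 regions over the larger crossed set. This order was not kept when each list was cut to its best 103800 peaks: S7KO-only regions then numbered 1281, WT-only regions 1278 and the crossed sets 1203 and 1302. With a −log10 q of at least 2 asked of every peak the counts were 1603, 1395, 1325 and 1535. Leaving out 1 library loses the depth match, and the sets then ask for unlike numbers of peaks and absences. Their order in those settings therefore does not compare the sets like for like. The S7KO-only count was below the larger crossed count without S7KO 1, S7KO 4 or WT 1, by 951, 1433 and 4493 regions. Without WT 4 it was above, by 733. Of the merged regions, 98151 (65.0%) were called in all 4 libraries.

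**Figure D2:**
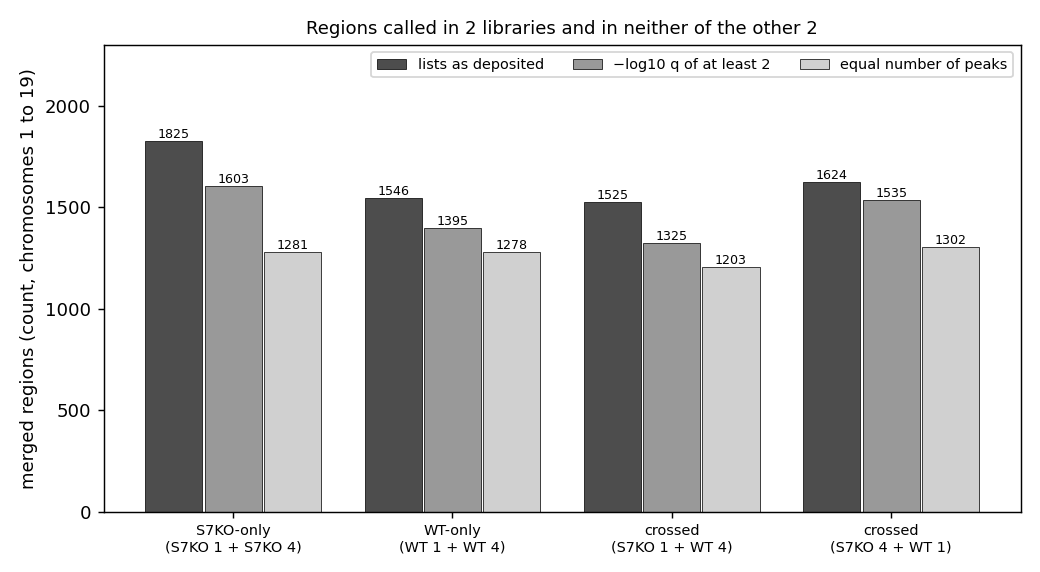
Number of merged regions (y axis) called in 2 libraries and in neither of the other 2, for the S7KO-only, WT-only and 2 crossed sets, with the lists as deposited, with every peak at a −log10 q of at least 2, and with 103800 peaks per list. As deposited the S7KO-only bar is highest at 1825, and with equal numbers of peaks the 4 bars lie between 1203 and 1302.

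S7KO-only regions were weak and narrow calls. The median −log10 q of their peaks was 2.29 in S7KO 1 and 2.50 in S7KO 4, where regions called in all 4 libraries had medians of 9.50 and 12.4. The median fold enrichment over local background was 2.55 in S7KO 1 and 2.44 in S7KO 4, against 3.91 and 4.01. Ranked within its list from 0 for the strongest peak to 100 for the weakest, the median peak stood at 89.0 in S7KO 1 and 88.6 in S7KO 4. The crossed sets had medians of 89.8 in S7KO 1 and 88.2 in S7KO 4, so regions chosen across genotypes also sat near the end of the lists. The median width of an S7KO-only region was 393 bp (quartiles 310 and 529, widest 2119), against 376 and 383.5 bp in the crossed sets, 377 bp in the WT-only set and 966 bp for regions called in all 4 libraries. Together the S7KO-only regions covered 859.54 kb.

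Most members lay close to the limit that defined them. The weaker of the 2 S7KO peaks had a −log10 q of 1.03 at the lowest, 1.98 at the median and 11.6 at the highest, and in 938 regions (51.4%) it was under 2. The lowest value inside the limit belonged to a region in the body of Fam222b (chr11:78122767-78123046), at 1.03 in S7KO 1 and 1.88 in S7KO 4. Just outside it were 7795 regions called in both S7KO libraries and in exactly 1 of the 2 WT libraries, 2490 of them in WT 1 and 5305 in WT 4. The weakest WT peak that kept a region out lay in the body of Rin2 (chr2:145884247-145885408), at 1.04 in WT 1 beside 1.24 in S7KO 1 and 1.56 in S7KO 4. Of those 7795 regions, 1230 were kept out by a WT peak with a −log10 q under 2. In 286 S7KO-only regions (15.7%) both peaks reached 3, against 19.5% of WT-only regions and 16.6% and 18.5% of the crossed sets.

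**Figure D3:**
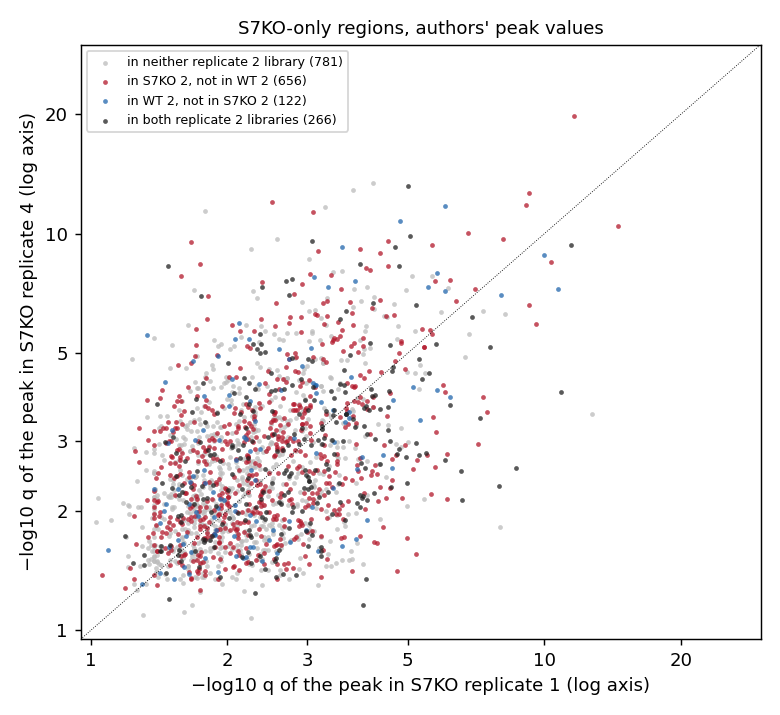
Each point is 1 of the 1825 S7KO-only regions, at the −log10 q of its strongest peak in S7KO 1 (x, log axis) and in S7KO 4 (y, log axis), coloured by its calls in the replicate 2 libraries. Points crowd near the lower limit, with medians of 2.29 and 2.50, and the 4 colours are spread through the same cloud.

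Few S7KO-only regions lay beside a peak that the WT libraries had. A WT 1 or WT 4 peak was a median of 4433 bp away, and it lay within 1 kb of 131 regions (7.18%), against 6.23% and 6.53% of the crossed sets for the libraries that lacked those. The nearest region called in all 4 libraries was a median of 6254 bp away, with 87 S7KO-only regions (4.77%) within 1 kb of one.

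In the replicate 2 libraries the shares of S7KO-only regions called lay between those of the 2 crossed sets. In S7KO 2, 922 of 1825 were called (50.5%, 95% Wilson interval 48.2 to 52.8). The share was 49.7% of WT-only regions (47.3 to 52.2), 53.8% of the crossed set of S7KO 1 with WT 4 (51.3 to 56.3) and 44.4% of the crossed set of S7KO 4 with WT 1 (42.0 to 46.8). In WT 2, 388 were called (21.3%, 19.4 to 23.2), against 21.3%, 23.1% and 15.8%. Both replicate 2 libraries had 266 of the regions, S7KO 2 alone had 656, WT 2 alone had 122 and neither had 781. Intervals here and below cover counting error over regions only, and neighbouring regions share a library.

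Among the 778 S7KO-only regions called in exactly 1 of the replicate 2 libraries, 84.3% (81.6 to 86.7) were called in S7KO 2. The same share was 83.01% in the WT-only set and 83.9% and 84.8% in the crossed sets, so it differed by less than 2 percentage points among the 4 sets. S7KO 2 had the longer list and the higher background coverage, and the part of depth in this share was not tested. Cutting S7KO 2 to its best 103800 peaks, the number in WT 2, removed its peaks below a −log10 q of 2.53, where the S7KO 2 peaks in S7KO-only regions had a median of 2.25. The cut list held 371 of the S7KO-only regions (20.3%, 18.5 to 22.2), against 388 in WT 2. Of those in exactly 1 of the 2, 240 were in the cut S7KO 2 list and 257 in WT 2 (48.3% in S7KO 2, 43.9 to 52.7), where the other sets gave 51.0%, 51.4% and 51.8%.

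When instead all 6 lists were cut to 103800 peaks and the regions chosen anew, 641 of 1281 S7KO-only regions were called in S7KO 2 (50.04%, 47.3 to 52.8) and 557 in WT 2 (43.5%, 40.8 to 46.2). Of those in exactly 1 of the 2, S7KO 2 had 57.7% (53.6 to 61.8). That share was 56.4% (52.0 to 60.7) in the crossed set of S7KO 1 with WT 4, 51.2% in the opposite crossed set, 50.7% in the WT-only set and 76.4% among regions called in all 4 libraries. The interval of the S7KO-only set overlapped that of each crossed set under this setting.

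Calls in replicate 2 became rarer toward the end of the lists. By the rank of the weaker S7KO peak, S7KO 2 held 60.7% of the 117 regions ranked up to 75, 58.9% of 280 at 75 to 85, 55.7% of 409 at 85 to 92, 45.8% of 546 at 92 to 97 and 44.0% of 473 beyond 97. WT 2 held 26.5%, 29.6%, 23.7%, 17.8% and 16.9% of the same regions. In the crossed set of S7KO 1 with WT 4 the shares in S7KO 2 were 61.8%, 55.9%, 56.5%, 54.5% and 47.3%. At ranks 92 to 97 the S7KO-only value lay below that crossed set's interval (49.8 to 59.0), and in the other 4 bins it lay inside. In the opposite crossed set the shares were 56.4%, 52.7%, 43.3%, 44.0% and 37.8%. The S7KO-only value lay just above that set's interval at 75 to 85 (58.93%, against 46.40 to 58.86). It was also above it at 85 to 92 (38.3 to 48.4) and beyond 97 (33.2 to 42.6). Of the 286 regions with both peaks at 3 or more, 59.8% were called in S7KO 2 and 31.8% in WT 2. The crossed set of S7KO 1 with WT 4 had 57.7% and 29.2%. The opposite crossed set had 58.3% and 21.7%, and the WT-only set 59.5% and 29.2%.

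**Figure D4:**
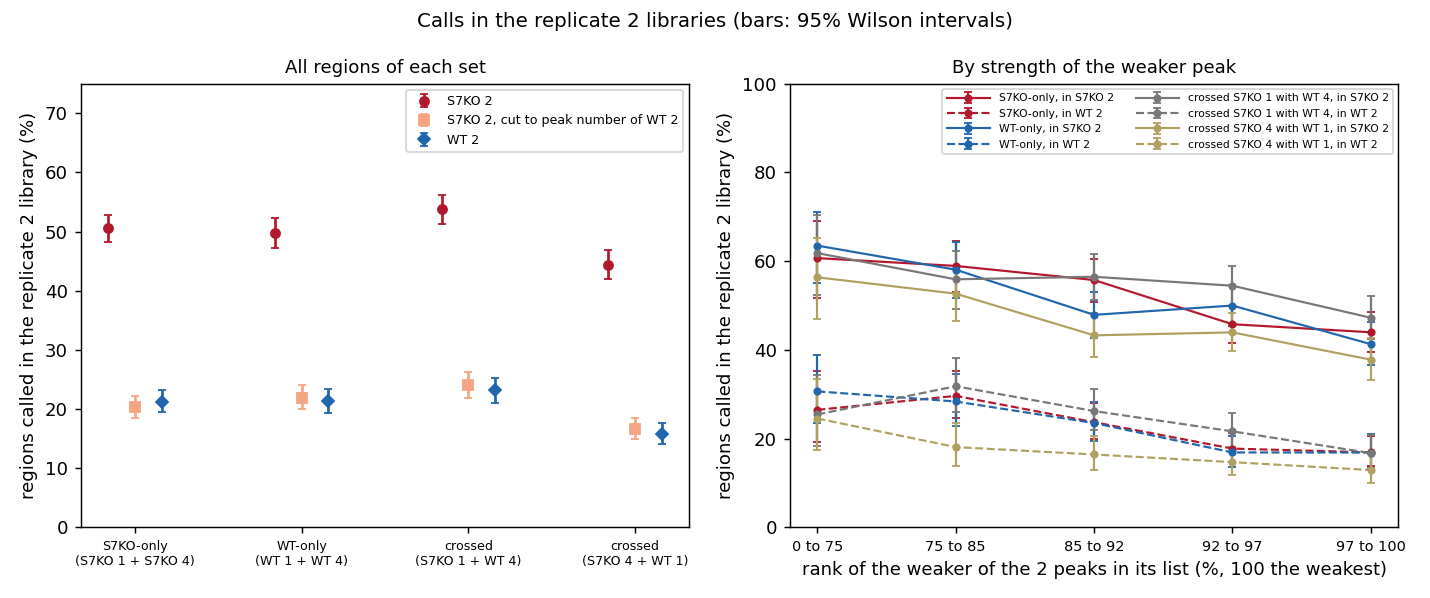
Left, share of each set of regions called in S7KO 2, in S7KO 2 cut to the 103800 peaks of WT 2, and in WT 2 (y axis, %). Right, the same shares in S7KO 2 (solid) and WT 2 (dashed) by the rank of the weaker defining peak (x axis, 100 the weakest). Bars are 95% Wilson intervals. The S7KO-only shares (50.5% and 21.3%) lie between those of the 2 crossed sets, and the cut S7KO 2 list holds 20.3% of the S7KO-only regions.

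By feature class, S7KO-only regions were mostly outside promoters. Within 3 kb of a gene's 5′ end lay 136 (7.45%, 6.33 to 8.75), elsewhere in a gene body 931 (51.0%, 48.7 to 53.3) and in distal intergenic DNA 758 (41.5%, 39.3 to 43.8). Promoter shares were 4.79% in the WT-only set, 5.84% and 7.82% in the crossed sets and 21.3% in regions called in all 4 libraries. Gene body shares were 57.5% in the WT-only set and 57.4% (54.9 to 59.9) and 48.2% (45.7 to 50.6) in the crossed sets, so the crossed sets differed more from each other than the S7KO-only set did from either. Exon and intron were not separated, since no exon annotation of this build was used. The shares called in replicate 2 differed little between the classes, and S7KO 2 held 55.1% of promoter regions (46.8 to 63.2), 50.2% of those in gene bodies and 50.1% of distal ones.

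**Figure D5:**
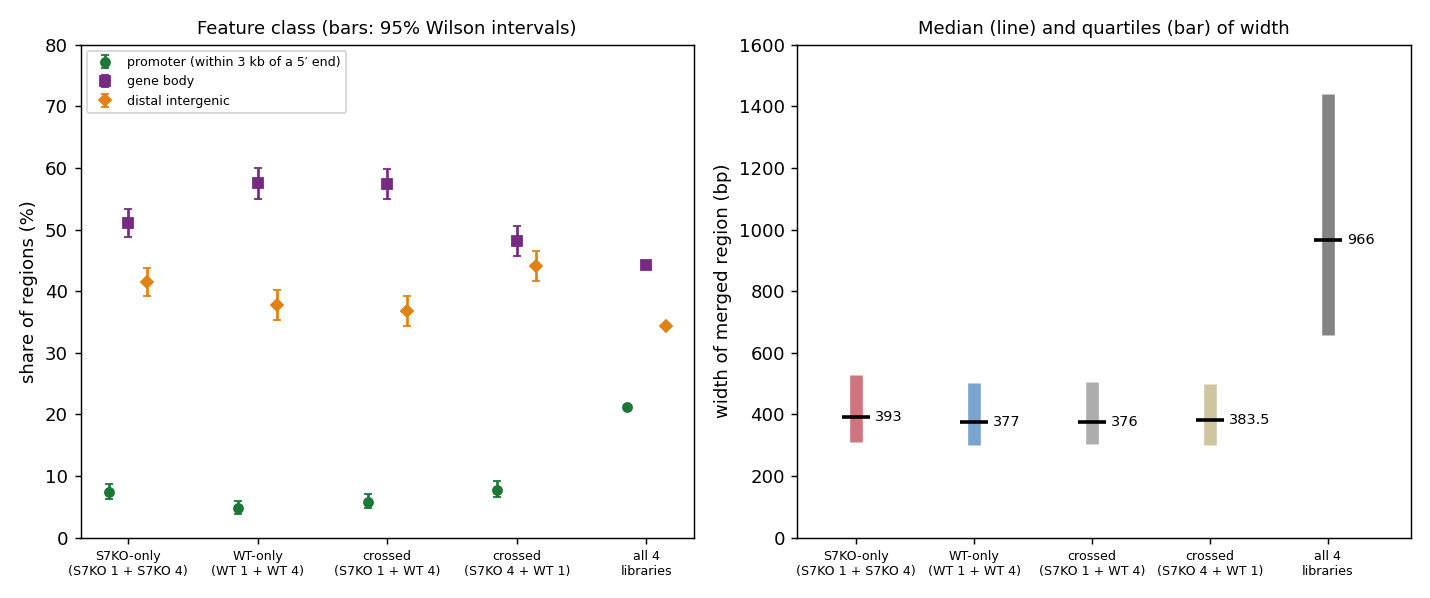
Left, share of each set in promoters, gene bodies and distal intergenic DNA (y axis, %, bars 95% Wilson intervals). Right, width of the merged regions (y axis, bp), median and quartiles. S7KO-only regions are at promoters in 7.45% of cases against 21.3% for regions called in all 4 libraries, and their median width is 393 bp against 966 bp.

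The genes that held S7KO-only regions were long. The 1017 regions inside a gene span had host genes with a median length of 110.6 kb, against 103.0 and 93.5 kb in the crossed sets, 105.8 kb in the WT-only set and 68.3 kb for regions called in all 4 libraries. The nearest genes were 1657 different ones, protein-coding in 69.2% of cases, and the median distance to a 5′ end was 26.4 kb, with 313 regions (17.2%) more than 100 kb from any. Of 1057 genes that held a region in their body or promoter, 976 (92.3%) also held one called in all 4 libraries. Over all 33073 genes, 25135 held a region called in all 4 libraries. The WT-only set had regions in 974 of the 33073 genes, and the crossed sets in 949 and 911. The WT-only set shared 127 of the 1057 S7KO-only genes, which is 12.0% of the S7KO-only genes and 13.0% of the WT-only genes. The crossed sets shared 130 (12.3% and 13.7%) and 123 (11.6% and 13.5%).

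The strongest S7KO-only regions are given with the −log10 q in each library. The best of all by the rank of its weaker peak lay 8969 bp from Gcgr, the glucagon receptor (chr11:120519495-120520215), at 11.6 in S7KO 1, 19.9 in S7KO 4 and 13.6 in S7KO 2, with no peak in WT 2. Its fold enrichment was 2.92, 3.17 and 3.05 in the same order. A narrower region 38635 bp from B3galnt1, an enzyme of globoside synthesis (chr3:69637596-69637891), stood at 9.28, 12.7 and 10.6 with folds of 4.45, 4.51 and 4.49. In the body of Car8, a carbonic anhydrase-related protein without enzyme activity (chr4:8143972-8144414), the values were 9.14, 11.8 and 10.5. At these 3 places the S7KO libraries gave like values and WT 2 had no peak, but WT 2 was the shallowest library of the series.

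Others in the same group of 10 had a different pattern in replicate 2. A region in the body of Slc9c1, the sperm-specific sodium-proton exchanger needed for motility (chr16:45603052-45603462), was at 8.12 in S7KO 1 and 9.71 in S7KO 4 but only 3.16 in S7KO 2. In the body of Trappc9, a subunit of a vesicle trafficking complex (chr15:72859265-72859675), the values were 7.05, 7.26 and 4.50. A region in Mtf1, the metal-responsive transcription factor, and within 3 kb of the start of 1110065P20Rik (chr4:124847758-124848068) was at 11.4, 9.35 and 9.64 in the S7KO libraries and also at 6.89 in WT 2. The region 10222 bp from the olfactory receptor gene Olfr1360 (chr13:21685203-21685563) was at 9.97 and 8.87, had no peak in S7KO 2 and was at 5.91 in WT 2. Strength in the 2 defining libraries thus did not fix the call in the third. The rest of the 10 lay near Efcab1, within Iqcm and near the lncRNA gene Gm30125, all called in S7KO 2 and not in WT 2.

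Among the 656 regions called in all 3 S7KO libraries and not in WT 2, those with the best worst rank over the 3 S7KO lists, beyond the ones already named, were at Msra, Cops8, Pdlim1 and Bach2. Their S7KO 2 values were thus part of the choice. The region in Msra, a methionine sulfoxide reductase that repairs oxidised protein (chr14:64409347-64409700), was at 9.25 in S7KO 1, 6.61 in S7KO 4 and 6.02 in S7KO 2. The one 1471 bp from the start of Cops8, a COP9 signalosome subunit (chr1:90601086-90601488), was at 9.57, 5.93 and 7.72. In Pdlim1, which encodes a cytoskeletal PDZ and LIM domain protein (chr19:40231323-40232187), the values were 5.75, 7.61 and 4.68. In Bach2, a transcriptional repressor known from lymphocytes (chr4:32373129-32373482), they were 5.61, 5.71 and 5.56. The nearest WT 1 or WT 4 peak was between 1492 bp (Cops8) and 7763 bp (Msra) away at these 4 places.

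Calls of the opposite kind in replicate 2 also occurred. Besides Olfr1360, the best of the 122 regions called in WT 2 and not in S7KO 2 lay in Npr1, the receptor for atrial natriuretic peptide (chr3:90450417-90450683), at 10.7 in S7KO 1, 7.25 in S7KO 4 and 2.62 in WT 2. The region 120 bp from Plxna2, a semaphorin receptor (chr1:194816990-194817320), was at 6.03, 11.8 and 5.80. The region in Thap4 (chr1:93723436-93723688) was at 6.04, 7.19 and 1.49, and the one near the lncRNA gene Gm33970 (chr1:80010796-80011084) at 8.05, 7.01 and 2.14.

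The 10 best-ranked promoter regions of protein-coding genes had mixed calls in replicate 2. Besides 1110065P20Rik and Cops8, the region 1816 bp from the start of Gtf3c5, a subunit of the RNA polymerase III factor TFIIIC (chr2:28585096-28585454), was at 6.94 in S7KO 1, 6.18 in S7KO 4, 8.39 in S7KO 2 and 4.43 in WT 2. The Cd80 region, whose window is printed above, was at 4.21 and 6.47 and had no peak in either replicate 2 library. At the start of Ccl2, a monocyte-attracting chemokine (chr11:82035422-82035677), the values were 3.55, 5.54 and 3.94 in S7KO 1, S7KO 4 and S7KO 2. The region near the start of Anln, which encodes the cytokinesis protein anillin (chr9:22390507-22390729), was at 5.98, 4.16 and 4.71 in the same libraries, and that of Asic5, an ion channel gene (chr3:81983605-81983898), at 3.93, 3.87 and 4.92.

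Of these 10 promoter regions, 7 were called in S7KO 2, 3 of them in WT 2 as well, 2 in WT 2 alone and 1 in neither. The 2 were near Uimc1, which encodes the RAP80 subunit of a BRCA1 complex, with 5.81 and 4.04 in the S7KO libraries and 2.35 in WT 2 (chr13:55101721-55102003), and at Klhl38, with 5.14, 4.10 and 1.29 (chr15:58324135-58324435). The region 2925 bp from the start of Fscn1, which encodes the actin-bundling protein fascin (chr5:142956961-142957429), was at 10.9 in S7KO 1, 4.001 in S7KO 4, 6.27 in S7KO 2 and 3.51 in WT 2.

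The 5 widest S7KO-only regions were called in S7KO 2, while the next, the 1603-bp region near Parp1, was called in neither replicate 2 library. The widest, 2119 bp, lay 31654 bp from Qpct, a glutaminyl cyclase (chr17:79122033-79124151), and its −log10 q was 2.42 in S7KO 1, 4.20 in S7KO 4 and 1.27 in S7KO 2. The next lay in Elavl4, a neuronal RNA-binding protein (1746 bp), in Mark1, a microtubule-associated kinase (1733 bp), near Gstm1, a glutathione S-transferase (1717 bp), and near Gm33394 (1663 bp). The Gstm1 region was also called in WT 2, at 1.26. In these 5 regions no −log10 q was above 4.20, where the strongest peak of any S7KO-only region was at 19.9.

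Single genes seldom held several members. Of 1057 genes with an S7KO-only region in their body or promoter, 81 held 2 or more and 11 held 3 or more. The WT-only set had 56 and 6 of 974 genes, and the crossed sets 71 and 8 of 949 and 65 and 11 of 911. Pdzd2, a PDZ domain protein gene of 380.3 kb, held 4, and it also held 2 WT-only regions, 1 region of each crossed set and 29 regions called in all 4 libraries. Among the genes with 3 regions each were Bach2, Elavl4, Niban1, Ntm, Sash1, Sgms1, Slc9a9, Sptb and Thsd4, which span between 130.1 and 968.5 kb. In Bach2 and in Thsd4, a thrombospondin repeat protein gene, 3 of 3 regions were called in S7KO 2, with 1 of 3 in WT 2 in Bach2 and 0 in Thsd4. The 3 Thsd4 regions stood at 2.97, 2.30 and 3.15 in S7KO 1 and at 3.59, 2.64 and 6.25 in S7KO 4. Their values in S7KO 2 were 3.22, 1.49 and 1.57.

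Along the chromosomes the regions were spread over all 19 autosomes, from 48 on chromosome 19 to 146 on chromosome 1. Of 501 windows of 5 Mb, the median window held 3 regions of each set, and the fullest held 13 S7KO-only or 13 WT-only regions, and 10 or 11 of the crossed sets. The fullest for S7KO-only regions was chr9:60000001-65000000, with the 3 Thsd4 regions and 10 others, where the WT-only set had 5 and the crossed sets 6 and 7. The window chr12:75000001-80000000, with the 3 regions of Sptb, a spectrin gene, and 2 of Rad51b, held 11 against 4, 4 and 6. The window chr3:105000001-110000000 held 11 against 0, 4 and 3, and its regions lay near 4 potassium channel genes or transcripts (Kcnd3, Kcnd3os, Kcna2 and Kcnc4), near Gstm1 and at the promoter of Taf13, among others. At the Kcnc4 region the −log10 q was 4.13 in S7KO 1, 5.30 in S7KO 4, 1.48 in S7KO 2 and 1.43 in WT 2. The chr9, chr12 and chr3 windows held 493, 407 and 425 merged regions, and S7KO-only regions were 1.21% of all merged regions. Tied with the chr12 and chr3 windows at 11 were chr4:135000001-140000000, against 8, 8 and 10, and chr7:65000001-70000000, against 3, 3 and 4. The tied windows held 699 and 415 merged regions. All these windows were picked for their counts, and no test was made of them. By chromosome the share of merged regions that were S7KO-only ran from 0.961% on chromosome 2 to 1.45% on chromosome 16.

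Near the targeted gene, 3 S7KO-only regions lay within 100 kb of Sirt7, out of 33 merged regions there, against 1 WT-only region and 0 of each crossed set. They were the Gcgr region, a region 1001 bp from Alyref, an mRNA export factor (chr11:120593063-120593502), and a region in Pcyt2, an enzyme of phosphatidylethanolamine synthesis (chr11:120612657-120613000). The Alyref region was at 1.73 in S7KO 1, 2.68 in S7KO 4 and 2.86 in S7KO 2, and the Pcyt2 region at 2.51, 12.1 and 5.17. All 3 were called in S7KO 2 and none in WT 2, where the shares over all S7KO-only regions were 50.5% and 21.3%. Among all merged regions 1.21% were S7KO-only. Within 1 Mb the counts were 5 S7KO-only, 2 WT-only, and 2 and 5 crossed regions, and within 5 Mb they were 9, 5, 5 and 7. The 2 further S7KO-only regions within 1 Mb, near Tex19.2 and in Fn3k, were called in neither replicate 2 library.

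For lists of genes of the testis, each region is counted for its nearest gene and for every gene whose span it overlaps. A promoter region is also counted for the gene of the nearest 5′ end. The share of S7KO-only regions is set beside the share of regions called in all 4 libraries. The list of 31 genes of undifferentiated spermatogonia had 1 region (0.0548%, against 0.161% of regions called in all 4 libraries), in the body of Zbtb16 (chr9:48775662-48776060), at 2.91 in S7KO 1, 3.20 in S7KO 4 and 2.69 in S7KO 2. The WT-only set had 2 regions for this list and the crossed sets 3 and 2. The list of 18 differentiation genes had 3 (0.164%, against 0.102%). For Rarb, a retinoic acid receptor gene, 1 lay in its body (chr14:16526100-16526405) and was in neither replicate 2 library, and 1 lay 115865 bp away in intergenic DNA (chr14:17198197-17198448) and was called in S7KO 2, at 5.62. The third lay in Dmrt1, the transcription factor that holds back meiosis (chr19:25527500-25528460). The Dmrt1 region was at 1.73, 1.40 and 5.10 in S7KO 1, S7KO 4 and S7KO 2, so the library not used in the choice had the strongest peak. For the 18 germ cell identity genes there was 1 (0.0548%, against 0.0825%), in Tex14, which is needed for the bridges between germ cells (chr11:87541957-87542776), at 1.92, 2.41 and 1.67. All 3 of these list counts lay within 2 regions of the counts in each of the other sets.

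Marker lists of the somatic cells of the testis also had between 0 and 4 regions each. Sertoli cell markers had 2 (0.110%, against 0.116% of regions called in all 4 libraries), near Inhbb, the inhibin beta B subunit, and in Dmrt1, which Sertoli cells also express. The Leydig cell and the peritubular and stromal lists had 0, against 0.0469% and 0.0458%. The endothelial list had 4 regions (0.219%, against 0.106%), with 1 in the WT-only set and 1 and 0 in the crossed sets. They lay at Flt1 and in Kdr, both receptors for vascular endothelial growth factor, and at the transcription factor gene Erg with 2 regions. At Flt1 (chr5:147657933-147658296) the values were 3.56 in S7KO 1, 7.26 in S7KO 4 and 3.05 in S7KO 2, and in Kdr (chr5:75956032-75956415) 3.08, 4.78 and 2.81, with 2.47 in WT 2. The Erg regions were in neither replicate 2 library. The macrophage and blood list had 2 regions (0.110%, against 0.0428%), both outside Ptprc, which encodes CD45, and in neither replicate 2 library. The part of other cell types in these calls was not tested.

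Of lists tied to the function of SIRT7, the 22 modifiers of H3K36 and sirtuins had 2 regions (0.110%, against 0.0927% of regions called in all 4 libraries), in the acetyltransferase gene Kat2b, with 2.53 in S7KO 1, 1.51 in S7KO 4 and 1.90 in S7KO 2, and 3886 bp from the histone demethylase gene Kdm4b, with 1.21 and 1.54. The WT-only set had 4 and the crossed sets 0 and 2. For 25 genes of DNA double-strand break repair there were 4 (0.219%, against 0.104%), near Parp1, in Fancc and 2 in Rad51b, with 4 in the WT-only set and 2 in each crossed set. The Parp1 region (chr1:180601924-180603526), which lay 924 bp from this sensor of DNA breaks, was at 3.63 and 2.72 and in neither replicate 2 library. The Fancc region, in a gene of the Fanconi anaemia pathway, was at 4.08 in S7KO 1, 2.13 in S7KO 4, 3.84 in S7KO 2 and 1.91 in WT 2.

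Gene families were counted by the nearest gene, and each is given as a share of the S7KO-only regions, of the 2 crossed sets and of the regions called in all 4 libraries, with no test. Solute carriers (Slc) were nearest to 24 S7KO-only regions (1.32%), against 1.05% and 1.42% in the crossed sets and 1.61% in all 4 libraries. Zinc finger genes (Zfp) had 12 (0.658%), against 0.721% and 1.17%, and 1.02%. Olfactory receptors (Olfr) had 10 (0.548%), against 0.393% and 0.616%, and 0.277%. These 3 shares lay below, below and above that of regions called in all 4 libraries, and those of solute carriers and olfactory receptors lay between the crossed sets. Potassium channel genes (Kcn) had 11 (0.603%), against 1.05% and 0.308%, and 0.566%. Receptor-type protein tyrosine phosphatases (Ptpr), which act in cell adhesion and in lymphocytes, had 11 (0.603%), against 0.459% and 0.185%, and 0.303%, with 0.517% in the WT-only set, and S7KO 2 held 3 of the 11. Vomeronasal receptor genes had 0. Predicted genes with Gm names were nearest to 454 regions (24.9%), against 22.7% and 27.6% in the crossed sets and 22.2% of regions called in all 4 libraries.

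The 10 olfactory receptor regions were mostly weak. Apart from Olfr1360, the weaker of the 2 defining peaks was highest at the region of Olfr452, at 3.03 in S7KO 1 and 2.16 in S7KO 4, and lowest at that of Olfr1510, at 1.41 and 1.95. S7KO 2 held 4 of the 10, at Olfr1364, Olfr1510, Olfr452 and Olfr586, and WT 2 held only that of Olfr1360. Over all S7KO-only regions the shares in S7KO 2 and WT 2 were 50.5% and 21.3%. The Ptpr region with the best weaker peak lay near Ptprd, at 6.68 and 4.90, and it was called in neither replicate 2 library.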

How the data were processed

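ATAC-seq of spermatogonia was deposited as 6 MACS2 broad peak lists, 1 per library, 3 S7KO and 3 WT, so replicates were not pooled. Per the study's methods and the submitters' processing notes, the authors trimmed reads (Trim Galore 0.6.6), aligned them to mm10 (Bowtie2 2.4.4.1), kept unique, non-duplicate reads, removed mitochondrial reads, shifted Tn5 ends, filtered fragments by size and called broad peaks with MACS2 2.2.5 at a cutoff of 0.1. The study's results speak of nucleosome-free fragments and its methods of a size filter that would keep longer ones, and which of these made the lists is not resolved, so a peak may mark either kind of fragment. The deposited columns hold a score, a fold enrichment over background (a ratio), a −log10 p-value and a −log10 q-value per peak. A call therefore depends on depth, and a missing peak is no measure of closed chromatin. Read depth is not in the lists. The background coverage was solved from fold and −log10 p in peaks under 300 bp.

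Groups were taken from the genotype labels and replicate numbers (1, 2 and 4) from the titles. The sample descriptions give other library numbers. With Python 3.11.15, numpy 2.4.6, pandas 2.3.3 and scipy 1.17.1, peaks on chromosomes 1 to 19 that overlapped or touched were joined into regions. A library had a region where a peak overlapped it by at least 1 bp. Where several peaks fell in a region, the one with the highest −log10 q gave the values. Genes were 33073 RefSeq protein-coding and lncRNA genes (GRCm38.p6, the mm10 assembly), with a 5′ end for 94.7% of them. A region counted as promoter within 3 kb of a 5′ end. Strand came from RefSeq start windows, or for 5573 genes from GENCODE by symbol. Shares carry 95% Wilson intervals, which cover counting error over regions only. No test was made, because calls in 4 libraries chose the regions. The merging and annotation steps were tested on simulated data.

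The regions, gene lists and families were chosen with earlier results of these data known. Named regions were the 10 best by their weaker peak's rank, the 10 best called in S7KO 2 and not WT 2, and the 10 best at coding promoters. The 5 widest, the 5 best in WT 2 and not S7KO 2, and up to 4 per list were also named. So were genes with 3 or more regions and the 3 fullest 5-Mb windows, with windows tied with the last of them. Genes near Sirt7, starts with sequence and family members were named in addition, after their values were seen. Some items that met these rules are not reported here.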

Additional observations from a re-analysis of the deposited data

How the results depend on the processing

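Of 75 values recomputed over 12 alternative settings, 34 stayed within 1.5 times the reported count or within the reported value's 95% interval. With 103800 peaks in each library, 43.5% of the S7KO-only regions were called in WT 2 and their median width was 444 bp. With peaks of the 4 defining libraries under a −log10 q of 2 removed, 64.3% were called in S7KO 2 and 33.1% in WT 2, and the median width was 416 bp. Asking that peaks cover 50% of a region gave 2471 crossed regions of S7KO 4 with WT 1, a share in WT 2 of 18.99% and a median width of 473 bp. Merging over 6 libraries gave a median width of 427 bp. S7KO 2 cut to the peak number of WT 2 held 20.3%. The promoter share was 2.52% within 1 kb of a 5′ end and 3.12% with protein-coding genes only. Leaving out 1 library at a time, which by construction loosens the rule and removes the depth match, gave 4315 to 9009 S7KO-only regions, 3508 to 9981 WT-only regions, 3487 to 9960 crossed regions of S7KO 1 with WT 4 and 4114 to 8808 of S7KO 4 with WT 1. The share in S7KO 2 then ran from 27.5% to 71.7%, that in WT 2 from 9.12% to 37.9%, the median width from 277 to 458 bp and the promoter share from 6.27% to 7.60%. No paired analysis was possible because the results come from no test. Values exist only for called peaks, so a level in a library without a call is unknown.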

Other observations

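The X chromosome was left out of the choice of regions, and the same rule gave a different order there. Of 3198 merged regions on the X chromosome, 30 (0.938%, 95% Wilson interval 0.658 to 1.34) were called in both S7KO libraries and neither WT library, against 34 WT-only regions (1.06%, 0.762 to 1.48) and 26 (0.813%) and 56 (1.75%, 1.35 to 2.27) crossed regions. Of the 30, S7KO 2 held 15 and WT 2 held 6.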
